A study of Mus musculus with 24 samples.

Results

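The Sox9 and H3K4me3 peak maps of sorted mouse kidney cells were compared at 48 h after injury. They comprised 8 of the 16 peak lists of the series (24 samples with the inputs): the 4 Sox9 lists and the 4 H3K4me3 lists whose titles name 48 h, numbered 1 to 4 for each antibody. All mice were males of 9 to 12 weeks with the genotype Sox9IRES-CreERT2/+:R26RtdT/+, bilateral renal ischaemia-reperfusion injury and tamoxifen given when the injury was induced. There was no uninjured group and no group without Sox9. The inducible Cre is driven from the Sox9 locus, so tdTomato marked cells that expressed Sox9 around the time of injury and their descendants, whether or not Sox9 was still present when the cells were collected. Labelled cells of the cortex and outer medulla were enriched by flow cytometry, lightly fixed and frozen. Each pellet was then divided between the Sox9 antibody, the H3K4me3 antibody, which served as the positive control, and an input, and lists with the same number came from the same pellet. The cell type label names day 10 for all samples, so the time was taken from the titles.

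Sox9 is a transcription factor of the SOX family that binds short AT-rich motifs through its high-mobility-group domain, and in the kidney it is switched on in injured tubule cells that take part in repair. H3K4me3 is trimethylation of lysine on histone H3 at the start of active or poised genes, most of all at promoters rich in CG dinucleotides. In CUT&RUN, an antibody tethers a nuclease that releases the DNA around its target. A map of H3K4me3 is known as a set of strong peaks over active gene starts, whereas a sequence-specific factor also binds distal enhancers.

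The 4 Sox9 lists held 7706, 26520, 15971 and 16844 peaks on chromosomes 1 to 19, X and Y (replicates 1 to 4), and the 4 H3K4me3 lists held 29511, 33289, 37208 and 25811. H3K4me3 had more peaks than Sox9 in each of the 4 pellets. In every list the peak heights were whole multiples of a list-specific smallest height, called a step here (99.6% to 100% of peaks within 0.05 of a whole number). Peaks of exactly 1 step made up 96.6% to 97.8% of the Sox9 lists and 96.3% to 97.1% of the H3K4me3 lists. Values after ± are SDs over the 4 lists of an antibody (n = 4) throughout. Read depth is unknown, and steps cannot be compared between lists as amounts of protein. The smallest p that a two-sided exact permutation test of 4 lists against 4 can give is 0.0286, and that of a sign-flip test within 4 pellets is 0.125. None of the 13 comparisons tested here passed (lowest Benjamini-Hochberg adjusted p = 0.8125 over the 13 exact permutation tests).

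Summits of both antibodies were placed at gene starts more often than these windows occur in the genome. A summit lay within 1000 bp of the start of a protein-coding gene for 6.64%, 6.10%, 8.23% and 5.996% of Sox9 peaks in replicates 1 to 4. The values for H3K4me3 were 5.85%, 5.47%, 6.25% and 6.18%. Sox9 was higher in 3 of 4 pellets, and the groups overlapped. The means were 6.74% ± 1.03 for Sox9 and 5.94% ± 0.359 for H3K4me3, a difference of 0.805 percentage points (two-sided exact permutation test, p = 0.2; within pellets, exact sign-flip p = 0.25). Without pellet 3 the difference was 0.414 points. These windows made up 1.40% of the genome span, so the share was 4.81 ± 0.734 times the genome share for Sox9 and 4.23 ± 0.256 times for H3K4me3. The factor lay between 4.27 and 5.87 in the Sox9 lists and between 3.90 and 4.45 in the H3K4me3 lists.

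**Figure D1:**
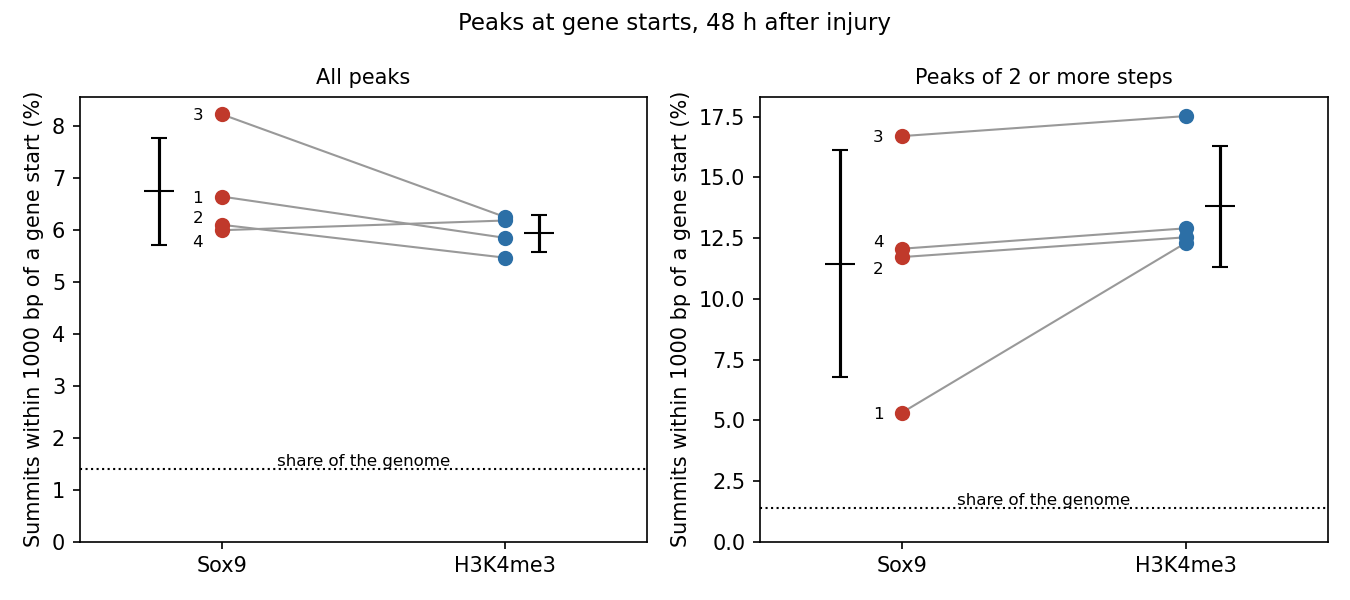
Share of summits within 1000 bp of a gene start (%, y axis) in each list, for all peaks and for peaks of 2 or more steps. Grey lines join the lists of a pellet (numbers 1 to 4), black bars are mean ± SD (n = 4) and the dotted line is the share of the genome (1.40%); Sox9 was higher in 3 of 4 pellets over all peaks and lower in 4 of 4 among peaks of 2 or more steps.

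Around the start both maps were highest in the first 500 bp into the gene, which held 3.45% ± 0.671 of Sox9 summits and 2.89% ± 0.197 of H3K4me3 summits. The 500 bp before the start held 1.64% ± 0.153 and 1.50% ± 0.0948. From 1500 bp to 2000 bp into the gene the shares were 0.526% and 0.534%. Sox9 replicate 3 was the highest list in the first 500 bp (4.42%), above the highest H3K4me3 list (3.03%), and the lowest Sox9 list (2.92%) lay within the range of H3K4me3.

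**Figure D2:**
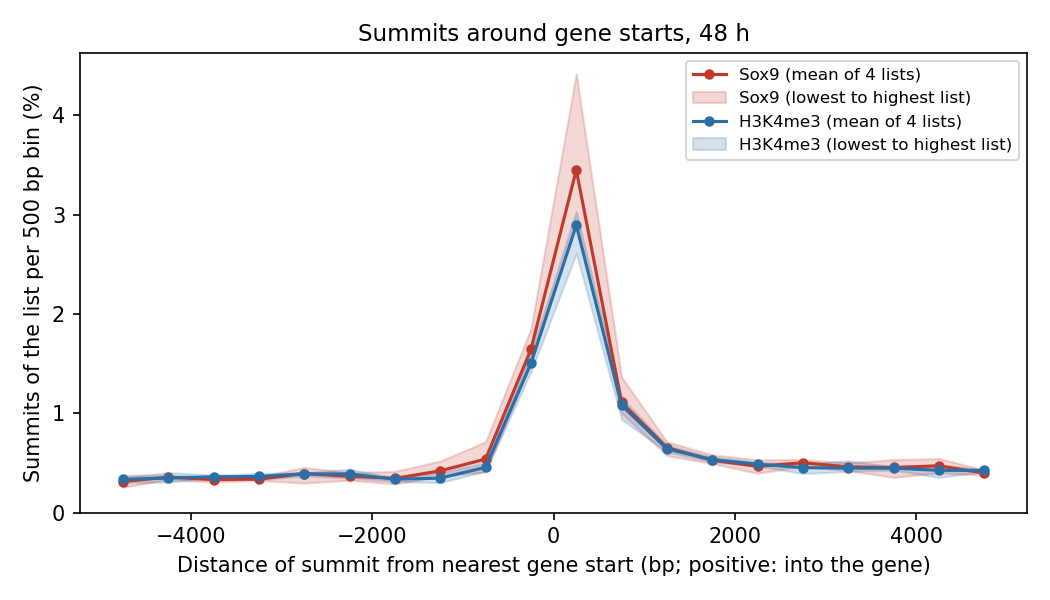
Summits per 500 bp bin (% of the list, y axis) against distance from the nearest gene start (bp, x axis, positive into the gene). Lines are means of 4 lists and bands run from the lowest to the highest list; both antibodies peaked in the bin from 0 to 500 bp, at 3.45% for Sox9 and 2.89% for H3K4me3.

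Away from the starts, summits lay inside protein-coding genes for 49.2% ± 1.22 of Sox9 peaks and 48.8% ± 0.718 of H3K4me3 peaks, where genes covered 38.7% of the span (difference 0.354 points, exact permutation p = 0.657). Sox9 replicate 3 was highest at 51.0%, and without pellet 3 the difference turned to -0.311 points. Summits more than 50000 bp from any gene made up 25.3% ± 0.782 of Sox9 and 25.6% ± 0.622 of H3K4me3 peaks, against 36.8% of the span (exact permutation p = 0.629). This difference, -0.280 points, was 0.0374 points without pellet 3.

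Among the few peaks above the lowest height, the H3K4me3 lists were at starts more often in every pellet, by most in pellet 1. The Sox9 lists had 188, 785, 539 and 373 peaks of 2 or more steps, and the H3K4me3 lists 943, 1093, 1364 and 744. Of these peaks, 5.32%, 11.7%, 16.7% and 12.1% lay at starts for Sox9 and 12.3%, 12.5%, 17.5% and 12.9% for H3K4me3. The difference, Sox9 minus H3K4me3, was -6.98 points in pellet 1 and between -0.839 and -0.815 points in the others, so the direction was the same in 4 of 4 pellets and most of the mean difference lay in pellet 1. The means were 11.5% ± 4.68 and 13.8% ± 2.48, a difference of -2.36 points (exact permutation p = 0.314; within pellets p = 0.125, the smallest possible). Without pellet 1 it was -0.826 points. The share of peaks with 2 or more steps was 2.75% ± 0.522 for Sox9 and 3.26% ± 0.322 for H3K4me3, lower for Sox9 in 4 of 4 pellets (difference -0.510 points, exact permutation p = 0.2; within pellets p = 0.125). The H3K4me3 list was also the longer list in each pellet, and the part of list length in this was not tested.

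The start share did not go on rising with height. For Sox9 it was 6.60% at 1 step, 13.7% at 2 steps, 4.21% at 3 to 9 steps and 3.30% at 10 or more steps (means of 4 lists). For H3K4me3 it was 5.67%, 15.7%, 6.94% and 3.13%. At 10 or more steps this rested on 3 of 129 Sox9 peaks and 6 of 208 H3K4me3 peaks. Most of the tallest peaks of both antibodies were away from gene starts.

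Peaks of both antibodies were narrow. The median width was 133, 146, 163 and 139 bp in the Sox9 lists and 138, 137, 144 and 135 bp in the H3K4me3 lists. The means were 145.25 ± 13.0 bp and 138.5 ± 3.87 bp, with Sox9 wider in 3 of 4 pellets and by most in pellet 3 (difference 6.75 bp, exact permutation p = 0.457). The difference was 2.67 bp without pellet 3 and 10.7 bp without pellet 1. The smallest width of a list, which differed between lists, was 102, 111, 120 and 106 bp for Sox9 and 105, 103, 107 and 103 bp for H3K4me3. With it subtracted from each list's median, the difference was 1.5 bp (exact permutation p = 0.771). Peaks of 2 or more steps were wider, with medians of 213, 206, 239 and 212 bp for Sox9 and 200, 193, 205 and 200 bp for H3K4me3. Sox9 was thus the wider of the pair in 4 of 4 pellets at these heights, which was not tested. Peaks of 500 bp or more, wide enough to span several nucleosomes, made up 0.309% ± 0.0972 of Sox9 and 0.299% ± 0.0526 of H3K4me3 peaks (exact permutation p = 0.886).

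Distances between the maps were measured on equal-sized random draws, in which each list was thinned to the 7706 peaks of the shortest list 100 times. Of Sox9 summits, 2.08%, 1.60%, 1.92% and 1.78% had an H3K4me3 summit of their own pellet within 1000 bp (pellets 1 to 4). The mean was 1.85%, against 1.86% for H3K4me3 lists of other pellets, so sharing a pellet made a difference of -0.0148 points (exact permutation of the 24 pairings, one-sided p = 0.667; the smallest possible is 0.0417). On average 0.576% of the genome lay within 1000 bp of a drawn H3K4me3 summit. The median distance from a Sox9 summit to the nearest H3K4me3 summit was 96495, 99219, 93006 and 99200 bp in own pellets. The mean of 96980.1 bp differed by 48.7 bp from the 96931 bp to other pellets (exact permutation, one-sided p = 0.375). Pellet 3 was the lowest.

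No difference in nearness was detected between lists of the same and of different antibodies. Between pellets, 2.21% of Sox9 summits had a summit of another Sox9 list within 1000 bp, 1.86% had an H3K4me3 summit there, and 1.59% of H3K4me3 summits had a summit of another H3K4me3 list. In these draws Sox9 lists were the closest to each other, but the draws keep more of a Sox9 list than of an H3K4me3 list. In whole lists the order was another: 4.52% between Sox9 lists, 6.11% between H3K4me3 lists, 7.09% from Sox9 to H3K4me3 and 3.73% from H3K4me3 to Sox9. Averaged over directions, nearness within an antibody was 1.90% and between antibodies 1.85% (difference 0.0472 points, exact permutation p = 0.286). Without pellet 3 the difference was -0.0478 points. Pairs with Sox9 replicate 1 or 3 had the higher values whichever antibody was on the other side.

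**Figure D3:**
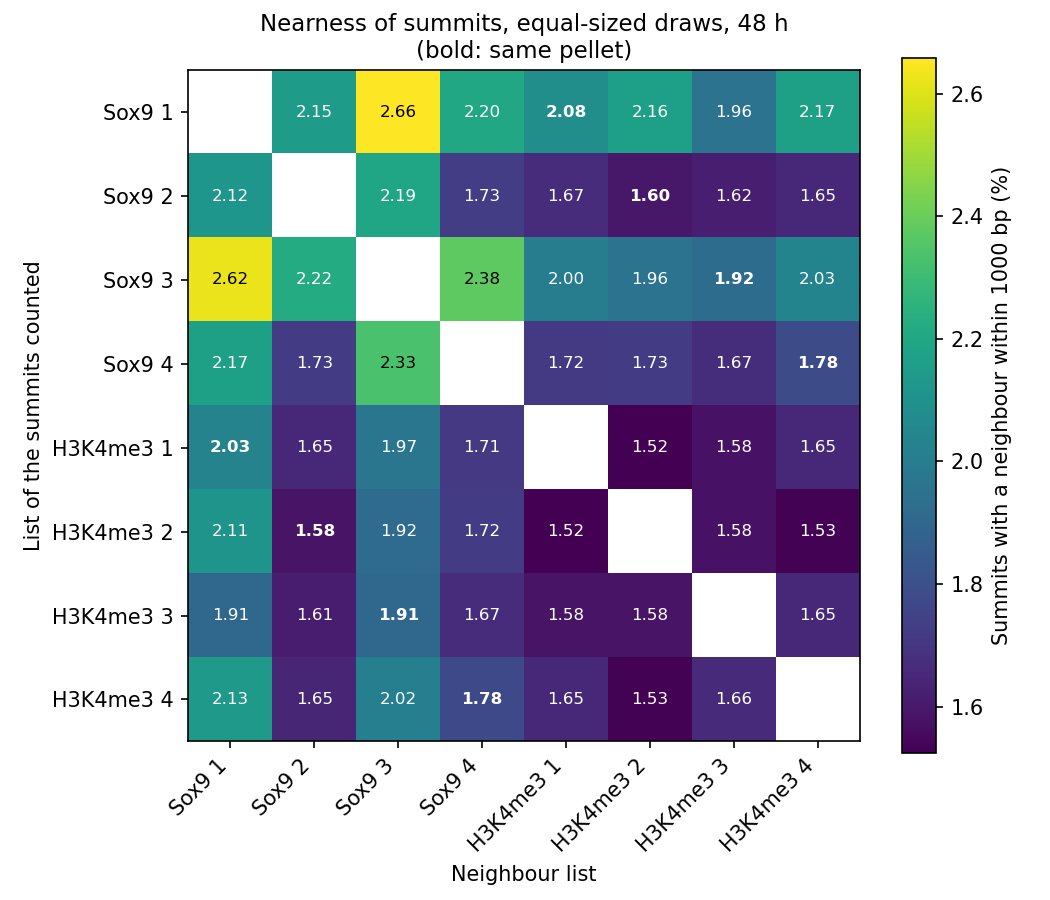
Share of summits of a list (rows) with a summit of another list (columns) within 1000 bp (%, colour and numbers), on equal-sized draws of 7706 peaks. Bold marks lists of the same pellet; own-pellet Sox9 to H3K4me3 values ran from 1.60% to 2.08% and the other-pellet values averaged 1.86%.

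The summits that did fall near the other antibody were enriched at gene starts. With the 4 whole lists of the other antibody pooled, 20.3% ± 1.46 of Sox9 summits had an H3K4me3 summit within 1000 bp, and 11.7% ± 0.256 of H3K4me3 summits had a Sox9 summit. Of the Sox9 summits near H3K4me3, 15.7% ± 1.72 were at starts, against 4.46% ± 0.777 of those not near. For H3K4me3 the values were 16.6% ± 1.11 and 4.52% ± 0.250. The ranges of near and not near did not overlap for either antibody. Of the Sox9 summits at starts, 47.4% ± 1.36 were near H3K4me3, so the remainder had no H3K4me3 summit within 1000 bp in any of the 4 lists.

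Overlap between the antibodies depended on height. In own pellets, H3K4me3 peaks overlapped 2.18% ± 0.602 of 1-step Sox9 peaks, 18.8% ± 7.74 of 2-step peaks, 70.7% ± 6.76 of peaks of 3 to 9 steps and 96.1% ± 2.56 of peaks of 10 or more steps (125 of 129). In the other direction Sox9 peaks overlapped 0.976%, 7.51%, 44.8% and 81.4% of H3K4me3 peaks of these heights (169 of 208 at 10 or more steps). H3K4me3 peaks covered 0.151% to 0.231% of the span and Sox9 peaks 0.0445% to 0.167%. The classes of 1 step and of 3 to 9 steps did not overlap between them in either direction. Almost all tall Sox9 peaks were therefore at positions where the H3K4me3 antibody gave a peak too. These counts are of peaks, of which several can lie in a single stretch.

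**Figure D4:**
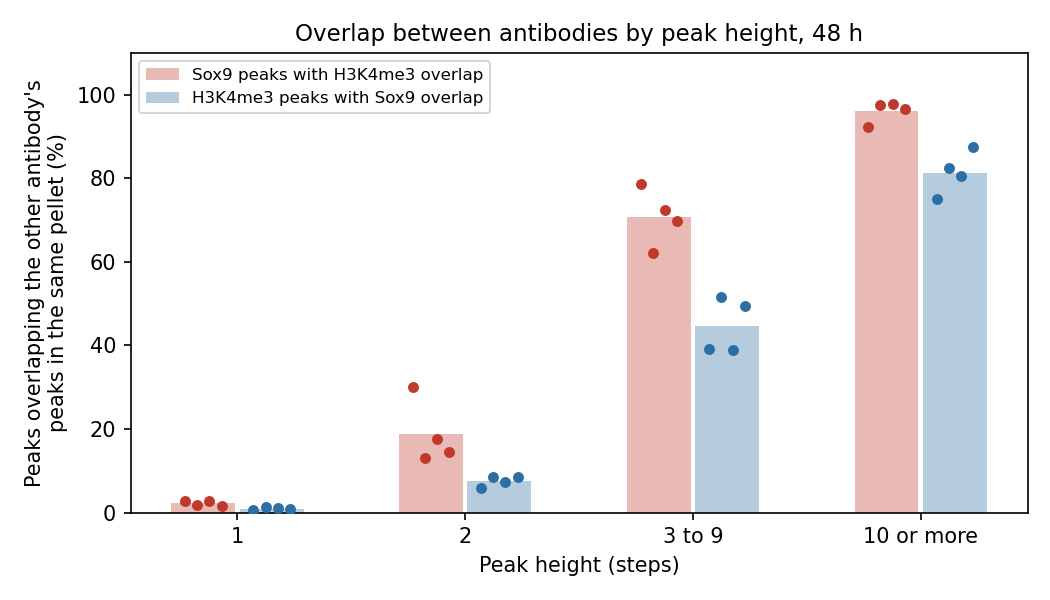
Peaks that overlap a peak of the other antibody in the same pellet (%, y axis) by height in steps (x axis). Bars are means and points the 4 lists; the mean rises from 2.18% at 1 step to 96.1% at 10 or more for Sox9, and from 0.976% to 81.4% for H3K4me3.

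At the tall positions, the own pellet was not always the best match. Sox9 replicates 1, 2 and 3 each had an H3K4me3 list of another pellet that overlapped 100% of their peaks of 10 or more steps. The H3K4me3 lists of their own pellets overlapped 92.3%, 97.5% and 97.8%, which were 12 of 13, 39 of 40 and 45 of 46 peaks. For Sox9 replicate 4 the own list overlapped most (96.7%, 29 of 30 peaks). At 10 or more steps, the overlap of Sox9 peaks with H3K4me3 lists of other pellets averaged 81.6% (range 32.6% to 100%). The low values came from pellet 1: its H3K4me3 list overlapped 35%, 32.6% and 43.3% of the tall Sox9 peaks of replicates 2, 3 and 4, whereas the other H3K4me3 lists overlapped at least 90% of the tall peaks of any Sox9 list. These are shares of peaks and not of separate positions, since several tall peaks of a list can lie in a single stretch. Such a stretch without H3K4me3 replicate 1 was chr9:3005566-3022981, which was 17416 bp long. Merged over the 8 lists there were 73 regions with such a peak, of which 31 had a peak in all 8 lists, 13 had no Sox9 peak and 1 no H3K4me3 peak. The single region without H3K4me3 lay within Prkdc, a DNA repair kinase gene (4 and 11 steps in Sox9 replicates 3 and 4). Of the 73 regions, 29 overlapped a protein-coding gene and 4 had a gene start within 1000 bp, in Dlx2, Bcl2l1, Yap1 and Krtap6-2. In 5 regions all 6 lists of pellets 2 to 4 had peaks and both lists of pellet 1 had none, whereas 0 regions had this pattern with pellet 2, 3 or 4 as the lacking pellet. The 5 are not separate positions. They include chr9:3000036-3005029, chr9:3005566-3022981 and chr9:3023001-3038280, which are adjacent pieces of a single stretch. The region chr9:35305241-35305589 (mm10), outside genes, was among the 5 and had 135, 72 and 63 steps in Sox9 replicates 2 to 4 and 170, 181 and 133 in H3K4me3. A region within Acacb, an acetyl-CoA carboxylase gene, chr5:114172867-114173180, had 68 and 84 steps in the Sox9 and H3K4me3 lists of pellet 4 and no peak in the other 6 lists. The regions at Prkdc and Acacb and on chromosome 9 were chosen after their values were seen. Lists of a pellet share the input they were called against, so shared cells and a shared input cannot be told apart.

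Of 55 regions with a peak of both antibodies in all 4 pellets, 20 (36.4%) overlapped a protein-coding gene, where genes covered 38.7% of the span. The tallest, chr2:98666564-98667322, had 478, 757, 444 and 444 steps in Sox9 replicates 1 to 4 and 961, 909, 1006 and 691 in H3K4me3, and its nearest gene, Lrrc4c, was 1034892 bp away. Next came chr17:4626159-4626611 (51 to 74 steps for Sox9, 119 to 216 for H3K4me3) and chr11:25100073-25100207 (33 to 57 and 101 to 163), both also outside genes. Each of these 3 regions stood far above the usual single step in all 8 lists. A region within Wdr76, chr2:121522322-121522895, had 6 to 23 steps in Sox9 and 9 to 232 in H3K4me3, the highest in replicate 3. They were kept, since no filter on artefact-prone regions was applied.

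Most regions repeated with a single antibody were of the lowest height. Of 182774 merged regions, 60228 had a peak in 1 Sox9 list only and 115134 in 1 H3K4me3 list only. In 709 regions at least 2 Sox9 lists and no H3K4me3 list had a peak, and 22.3% of these were at gene starts. In 2320 regions at least 2 H3K4me3 lists and no Sox9 list had a peak, and 18.3% were at starts. Regions of a single list were at starts in 5.38% and 4.87%, and regions with at least 2 lists of both antibodies in 9.97% of 351. Repeated regions of a single antibody were thus more often at starts than repeated regions of both, which was not tested. A list reached 3 or more steps in 7 of the 709 Sox9 regions (0.987%) and 43 of the 2320 H3K4me3 regions (1.85%), against 180 of the 351 regions of both (51.3%).

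No region had Sox9 in 4 of 4 lists without H3K4me3, and 15 regions had H3K4me3 in 4 of 4 lists without Sox9. Among those with Sox9 in 3 and H3K4me3 in 0, chr9:114390046-114390626 overlapped Crtap, a collagen-modifying gene, 86 bp from its start (0, 1, 1 and 3 steps in Sox9 replicates 1 to 4). The region chr5:121452371-121452740 spanned the start of Tmem116 and the neighbouring end of Erp29, an endoplasmic reticulum chaperone gene (0, 1, 2 and 1 steps). H3K4me3 reached 4 of 4 without Sox9 at chr6:9179728-9179909 within Nxph1, a neurexin ligand gene, with 3, 6, 6 and 2 steps, 229709 bp from its start. Another, chr19:58738574-58738927, lay within Pnliprp1, a pancreatic lipase gene (2, 1, 1 and 2 steps). The other 3 Sox9 regions named lay 44227 bp from the start of Eci2, 87290 bp from that of Spata16 and 472583 bp from that of Lrrtm4, and the H3K4me3 region in Pnliprp1 lay 9687 bp from its start. The other H3K4me3 regions named lay outside genes. They were chr9:70988268-70988895, 36047 bp from the start of Lipc, and chr17:3010167-3011110 and chr17:3081206-3081852, 103862 and 33120 bp from that of Scaf8.

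Per equal-sized draw, Sox9 lists reached 699, 651, 845 and 648 protein-coding genes and H3K4me3 lists 628, 586, 657 and 651. A gene counted when a summit was within 1000 bp of its start (17492 genes) or, where no start was given, of either end (4395 genes). The means were 711 ± 92.7 and 631 ± 32.2, with Sox9 higher in 3 of 4 pellets and by most in pellet 3 (difference 80.2 genes, exact permutation p = 0.171). Without pellet 3 the difference was 44.15 genes. In the whole lists the direction was the opposite: 699, 2149, 1706 and 1392 genes for Sox9 and 2299, 2401, 3016 and 2111 for H3K4me3 (difference -970.25 genes, exact permutation p = 0.0571). Whole H3K4me3 lists were the longer in each pellet, and the part of list length in this was not tested.

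Very few genes were held by every list of an antibody and by no list of the other. In the whole lists, 3 of 21887 genes (0.0137%) had Sox9 in 4 of 4 and H3K4me3 in 0 of 4, 10 (0.0457%) had the reverse, and 4 (0.0183%) had both in 4 of 4. With at least 3 of 4 against 0 of 4 the counts were 25 (0.114%) for Sox9 and 163 (0.745%) for H3K4me3. In the draws, 4 of 4 against 0 of 4 held for 0.35 genes (0.0016%) with Sox9 and 0.06 (0.000274%) with H3K4me3 on average, and at least 3 of 4 against 0 of 4 for 7.74 (0.0354%) and 4.71 (0.0215%). Most genes, 11793, had no peak of either antibody in any list. The draws kept 29.1% to 100% of a Sox9 list and 20.7% to 29.9% of an H3K4me3 list. A gene with a single peak in all 8 lists would so be present in 2.23 Sox9 and 0.998 H3K4me3 lists of a draw. Draws therefore lean to Sox9 and whole lists to H3K4me3 for genes that recur, and the order of the gene counts turns with the choice.

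The 5 promoters shown here carry the extremes of this comparison: Rmi1 and Pcmt1 (4 Sox9 lists, no H3K4me3 list), Aatk (4 H3K4me3 lists, no Sox9 list), Ybx1 (4 H3K4me3 lists, 1 Sox9 list) and Krtap6-2 (all 8 lists). Each sequence runs 5′ to 3′ on the strand of the gene from 250 bases before to 50 bases after a RefSeq start of GRCm38.p6, with CG dinucleotides in capitals. They are chr13:58402347-58402646 (plus strand), chr10:7681109-7681408 (minus), chr11:120047096-120047395 (minus), chr4:119294464-119294763 (minus) and chr16:89420062-89420361 (minus).
Rmi1: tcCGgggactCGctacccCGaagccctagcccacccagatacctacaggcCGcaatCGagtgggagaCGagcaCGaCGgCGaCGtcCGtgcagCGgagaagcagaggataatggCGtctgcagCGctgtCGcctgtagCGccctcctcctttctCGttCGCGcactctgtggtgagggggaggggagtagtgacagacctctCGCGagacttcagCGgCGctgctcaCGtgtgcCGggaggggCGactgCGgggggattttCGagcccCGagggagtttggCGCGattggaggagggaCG
Pcmt1: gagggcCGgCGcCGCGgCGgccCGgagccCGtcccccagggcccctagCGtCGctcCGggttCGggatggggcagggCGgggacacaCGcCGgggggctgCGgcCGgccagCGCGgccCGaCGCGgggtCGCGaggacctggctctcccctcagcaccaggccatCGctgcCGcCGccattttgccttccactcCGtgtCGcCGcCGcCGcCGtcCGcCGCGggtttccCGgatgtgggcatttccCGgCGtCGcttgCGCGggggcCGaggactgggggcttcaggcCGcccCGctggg
Aatk: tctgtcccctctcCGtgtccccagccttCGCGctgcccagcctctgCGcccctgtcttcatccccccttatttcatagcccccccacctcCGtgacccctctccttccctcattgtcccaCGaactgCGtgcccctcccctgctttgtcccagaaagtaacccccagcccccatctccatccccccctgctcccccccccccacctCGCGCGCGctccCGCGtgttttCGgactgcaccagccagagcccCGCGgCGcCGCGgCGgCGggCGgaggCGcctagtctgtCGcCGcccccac
Ybx1: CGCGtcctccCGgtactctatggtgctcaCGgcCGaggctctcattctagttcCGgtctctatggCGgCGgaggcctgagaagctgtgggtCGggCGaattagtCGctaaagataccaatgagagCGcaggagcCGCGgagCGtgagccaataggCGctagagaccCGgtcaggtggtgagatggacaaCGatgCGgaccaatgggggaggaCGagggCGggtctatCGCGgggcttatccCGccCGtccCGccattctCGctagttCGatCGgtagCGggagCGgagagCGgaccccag
Krtap6-2: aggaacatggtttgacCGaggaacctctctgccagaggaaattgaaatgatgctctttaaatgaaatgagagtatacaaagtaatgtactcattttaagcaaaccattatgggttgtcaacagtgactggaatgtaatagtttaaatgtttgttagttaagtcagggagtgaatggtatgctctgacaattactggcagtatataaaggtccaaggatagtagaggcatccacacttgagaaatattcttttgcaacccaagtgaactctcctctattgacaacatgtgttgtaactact

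Rmi1 encodes a subunit of the complex that dissolves recombination intermediates. It had a 1-step Sox9 peak in all 4 lists, with summits at -288, 336, 816 and -94 bp from this start in replicates 1 to 4 (negative, before the start). The 4 peaks were 126 to 163 bp wide and so did not stand on the same bases. Its promoter held 32 CG dinucleotides. Rmi1 overlaps its neighbour Hnrnpk, which had a Sox9 peak in replicates 1, 2 and 4 and no H3K4me3 list. Pcmt1, a protein repair methyltransferase, likewise had 1-step Sox9 peaks only. Replicates 3 and 4 had summits at -39 and -639 bp from the start shown (44 CG dinucleotides), and replicates 1 and 2 were near its other start. Sall3, a zinc finger transcription factor gene, was the third gene with 4 Sox9 lists and no H3K4me3 list, again at 1 step in each. Within the gene body and 10000 bp, H3K4me3 peaks were present in 2 of 4 lists at Pcmt1, 2 of 4 at Sall3 and 0 of 4 at Rmi1.

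The other genes that led for Sox9 in the draws had 3 of 4 Sox9 lists and at most 1 H3K4me3 list. They were Prex1 (a Rac activator), Ank2 (a membrane adaptor), Anxa3 (an annexin raised in injured tubules), Smyd2 (a lysine methyltransferase) and Unc80 (a subunit of a sodium leak channel). All their Sox9 peaks were of 1 step. H3K4me3 had a 1-step peak at Prex1 in replicate 1 and a 2-step peak at Unc80 in replicate 3. Prex1, Ank2, Smyd2 and Unc80 lacked Sox9 in replicate 2, and Anxa3 in replicate 4. Replicate 1, which is kept whole in the draws, was present at all 8 genes.

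The 10 genes with H3K4me3 in 4 of 4 and Sox9 in 0 of 4 were Sort1, B3galt6, Sdf4, Spesp1, Slc5a8, Tmpo, Wwc1, Aatk, Myh9 and Wtap. Sort1 encodes the sorting receptor sortilin, Myh9 the heavy chain of non-muscle myosin, Tmpo a nuclear lamina protein and Wtap a subunit of the RNA adenosine methylation complex. Wwc1 encodes KIBRA, an upstream regulator of Hippo signalling, and Slc5a8 a monocarboxylate transporter found in the proximal tubule. B3galt6 and Sdf4 lie head to head and were counted from the same peaks (1, 1, 2 and 2 steps in H3K4me3 replicates 1 to 4). Steps were 2, 1, 1 and 2 at Sort1 and 1, 1, 2 and 1 at Tmpo and at Wtap. Slc5a8, Wwc1, Aatk, Myh9 and Spesp1 had 1 step in every H3K4me3 list. None of the 10 exceeded 2 steps. Within the gene body and 10000 bp, Sox9 peaks were present in 4 of 4 lists at Aatk and Wwc1 and in 3 at Myh9. They were present in 2 lists at Sort1 and Sdf4, in 1 at B3galt6, Spesp1, Slc5a8 and Wtap, and in 0 at Tmpo. Over all genes, 35.7% of gene and list pairs had a Sox9 peak in this wider window.

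At Aatk, a kinase gene with 4 starts, H3K4me3 summits of replicates 1 to 3 lay 773, 746 and 677 bp into the gene from the start shown, with another of replicate 3 at 10 bp, and replicate 4 had its peak at another start. Its promoter held 25 CG dinucleotides. At Ybx1, which encodes a cold-shock domain protein that binds nucleic acids, H3K4me3 summits lay 936 and 491 bp (replicate 1), 722 and 443 bp (replicate 2), 693 bp (replicate 3) and 340 bp (replicate 4) into the gene. The only Sox9 summit, of replicate 2, lay at -96 bp. All were of 1 step, and the H3K4me3 summits were all downstream of the Sox9 summit. Il3ra, a cytokine receptor gene, had H3K4me3 in 3 lists (1, 2 and 1 steps in replicates 1, 2 and 4). Cachd1, Kcnk2 (a potassium channel), Naa15 (an N-terminal acetyltransferase subunit) and Purb (a single-strand DNA binding protein) also had 3 H3K4me3 lists, and Kdm2b, a histone demethylase that binds CG-rich DNA, had 2. These genes and Il3ra had no Sox9 list at their starts.

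Krtap6-2, a hair keratin-associated protein gene, had a peak of both antibodies in every list at the same place, 104 to 130 bp into the gene. Heights were 12, 9, 10 and 12 steps for Sox9 and 8, 15, 17 and 9 for H3K4me3, so the groups overlapped. Its promoter held 1 CG dinucleotide, the fewest of the 5 printed. The other genes with both antibodies in 4 of 4 were Rps29, a ribosomal protein gene (13, 13, 13 and 23 steps for Sox9, 70, 49, 40 and 44 for H3K4me3), and Arid2, a chromatin remodelling subunit gene, with its neighbour Gm38469, which were counted from the same peaks (1, 2, 2 and 1 for Sox9, 1, 3, 1 and 2 for H3K4me3). Of these genes, Krtap6-2 and Rps29 were tall in every list, and Arid2 was at or near the lowest height. Sfi1, a centrosomal protein gene, and H2-K1, an antigen-presenting class I gene, had 3 Sox9 lists and 4 H3K4me3 lists, with 1 to 3 steps. Camk2g and LOC100504180 completed the genes with most lists of both, in the draws.

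The 10 genes fixed by name for injured tubules and for Sox9 had a peak in 4 of 40 gene and list pairs (10%) for each antibody, where all genes had 6.79% for Sox9 and 11.2% for H3K4me3. Sox9 itself had a 1-step Sox9 peak in replicates 2 and 4 and a 1-step H3K4me3 peak in replicate 4. Wnt4, a ligand of tubule formation, had Sox9 in replicate 3 (2 steps) and H3K4me3 in replicate 1 (1 step). Havcr1, which encodes kidney injury molecule 1, had Sox9 in replicate 3 only. Lrp2, the proximal tubule endocytic receptor megalin, had H3K4me3 in replicate 2 only (2 steps), and Col2a1, a cartilage collagen gene and known Sox9 target, had it in replicate 1 only. Cdh6, Vcam1, Krt8, Hnf4a and Pax8 had no peak of either antibody at a start or end in any of the 8 lists. Of all 21887 genes, 11793 likewise had no peak of either antibody in any list. Taken singly, 65.4% of all genes had no H3K4me3 list and 77.2% no Sox9 list. Within 3000 bp, H3K4me3 was present in 2 lists at Krt8, a keratin gene, and in 1 at Cdh6, a cadherin gene. With the gene body and 10000 bp, H3K4me3 was present in 4 lists at Krt8, in 3 at Cdh6, Pax8 and Hnf4a and in 2 at Vcam1. Sox9 was present there in 3 lists at Hnf4a, in 2 at Cdh6 and Pax8 and in 1 at Krt8 and Vcam1. Within 3000 bp of Hnf4a, Sox9 was present in 1 list and H3K4me3 in 0. Over all genes, 53.5% of gene and list pairs had H3K4me3 and 35.7% had Sox9 with the gene body and 10000 bp.

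Over groups of genes, the order of the antibodies turned with the scaling. In whole lists H3K4me3 peaks were the more frequent in 29 of 34 gene lists, as over all genes, where 6.79% of gene and list pairs had a Sox9 peak and 11.2% an H3K4me3 peak. In equal-sized draws Sox9 peaks were the more frequent in 28 of 34 lists, and over all genes at 3.25% against 2.88%. The values below are of whole lists, in which those of H3K4me3 are the longer, so each group is read beside the shares of all genes. The groups differ in how many genes were counted by either end, which gives a gene an added window. Starts were given for 17492 of all 21887 genes, 14 of 20 Sox family genes and 12 of 23 endothelial genes. The extremes were 0 of 57 clustered protocadherin genes and 22 of 23 hypoxia and glycolysis genes. The part of this in the shares was not tested. Lists whose share was above that of all genes for Sox9 numbered 18, for H3K4me3 17, and 14 were above for both. In whole lists, the exceptions with at least as many Sox9 as H3K4me3 pairs were the Sox family, the Hippo pathway, cartilage targets of Sox9, injured tubule genes and the p53 response. These are counts with no test, and the lists were chosen with earlier results of these data known.

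**Figure D5:**
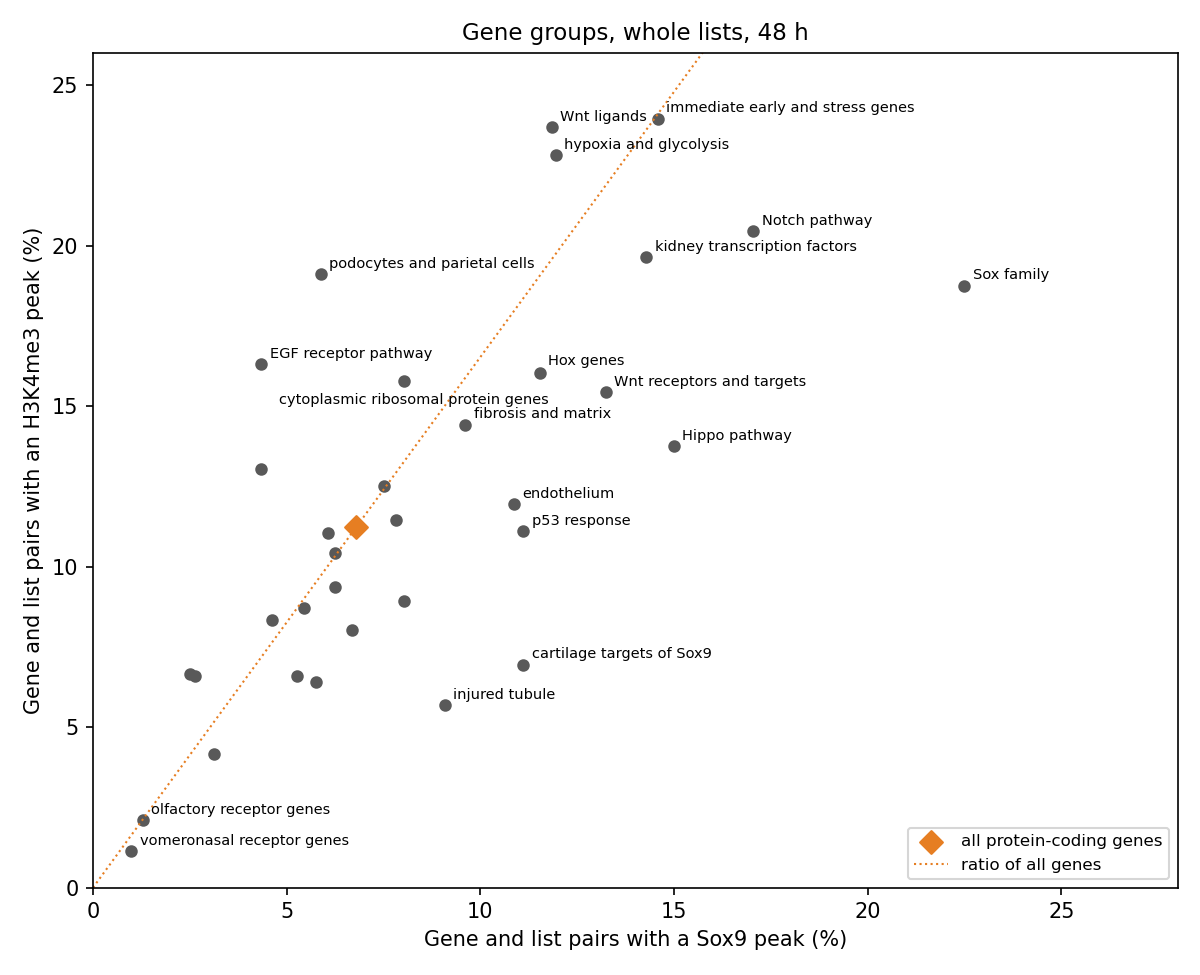
Gene groups by the share of their gene and list pairs with a Sox9 peak (%, x axis) and an H3K4me3 peak (%, y axis), whole lists. The diamond is all protein-coding genes (6.79% and 11.2%) and the dotted line their ratio; the Sox family lies furthest right (22.5% and 18.75%).

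In the Sox family, the transcription factors related to Sox9, 18 of 80 pairs (22.5%) had a Sox9 peak and 15 of 80 (18.75%) an H3K4me3 peak. The Sox9 shares by replicate were 5%, 40%, 15% and 30%, and those of H3K4me3 20%, 15%, 15% and 25%, so the excess lay in Sox9 replicates 2 and 4. Sox12 had Sox9 in 1 list and H3K4me3 in 4, Sox3 had 2 and 2, and Sox1 had 1 and 1. Cartilage targets of Sox9 had 8 of 72 pairs (11.1%) with Sox9 and 5 of 72 (6.94%) with H3K4me3. Their Sox9 shares were 5.56%, 16.7%, 22.2% and 0%. Col9a2, a cartilage collagen gene, had Sox9 in replicates 1 and 3 and no H3K4me3, and Acan, the aggrecan gene, had 1 list of each.

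Injured tubule genes had 8 of 88 pairs (9.09%) with Sox9 and 5 of 88 (5.68%) with H3K4me3. The Sox9 shares were 4.55%, 4.55%, 13.6% and 13.6%. Anxa3 gave 3 of the 8 Sox9 pairs, and Anxa2 and Cd24a had 1 list of each antibody. Differentiated proximal tubule genes had 5 of 108 pairs (4.63%) with Sox9 and 9 of 108 (8.33%) with H3K4me3, both below the shares of all genes. Slc4a4, a bicarbonate transporter, had Sox9 in 2 lists and H3K4me3 in 1. Kidney transcription factors had 16 of 112 pairs (14.3%) and 22 of 112 (19.6%), with Foxc2, Irx1 and Irx2 among those with peaks of both.

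Among signalling genes, Wnt ligands had 9 of 76 pairs (11.8%) with Sox9 and 18 of 76 (23.7%) with H3K4me3. Wnt7b had H3K4me3 in 3 lists and no Sox9, Wnt7a had Sox9 in 2 and H3K4me3 in 1, and Wnt10a had 1 and 2. Wnt receptors and targets had 18 of 136 (13.2%) and 21 of 136 (15.4%): the receptor gene Fzd4 had Sox9 in 2 lists and H3K4me3 in 1, Fzd1 had 1 and 3, and Gsk3b, a kinase of the beta-catenin destruction complex, had 0 and 3. Notch pathway genes had 15 of 88 (17.0%) and 18 of 88 (20.5%), with the ligand Dll1 in 2 Sox9 lists only and the coactivator Maml1 in 1 and 3. Hippo genes had 12 of 80 (15%) and 11 of 80 (13.75%). The coactivator gene Yap1 was the tall member, with 5 and 4 steps in Sox9 replicates 3 and 4 and 12, 8, 18 and 4 steps in H3K4me3. The kinase gene Lats1 had Sox9 in 2 lists, replicates 3 and 4, and no H3K4me3. Lats1 overlaps Pcmt1, and the Sox9 peaks of these replicates named at Pcmt1 also lay at the start of Lats1. EGF receptor pathway genes showed the lowest Sox9 share beside H3K4me3, 4 of 92 (4.35%) against 15 of 92 (16.3%). By replicate, their H3K4me3 shares were 30.4%, 21.7%, 4.35% and 8.70%, and their Sox9 shares 0%, 4.35%, 4.35% and 8.70%. The gap thus lay in pellets 1 and 2, and the antibodies had equal shares in pellets 3 and 4. Erbb4 and Tgfa each had H3K4me3 in replicates 1 and 2 and no Sox9.

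Immediate early and stress genes had 14 of 96 pairs (14.6%) with Sox9 and 23 of 96 (23.96%) with H3K4me3, with Egr1 in 2 Sox9 lists and 1 H3K4me3 list, Jun in 1 and 2, and the heat shock gene Hspa1b in 2 and 3. Hypoxia and glycolysis genes had 11 of 92 (12.0%) and 21 of 92 (22.8%). Pgk1, a glycolytic enzyme gene, had 1 step at its start in Sox9 replicates 3 and 4 and 5, 4, 4 and 1 steps in H3K4me3. At its other end, which was not counted, chrX:106203634-106204110 had a peak in every list. Its heights were 3, 2, 7 and 4 steps for Sox9 and 14, 10, 18 and 29 for H3K4me3. Cytoplasmic ribosomal protein genes, which are highly transcribed in all cells, had 27 of 336 (8.04%) and 53 of 336 (15.8%), and housekeeping genes 9 of 112 (8.04%) and 10 of 112 (8.93%). Housekeeping genes were thus below all genes for H3K4me3. Genes of silent families were low for both: olfactory receptors had 57 of 4440 pairs (1.28%) with Sox9 and 93 of 4440 (2.09%) with H3K4me3, and vomeronasal receptors 14 of 1412 (0.992%) and 16 of 1412 (1.13%). Genes silent outside other tissues had 3 of 120 (2.5%) and 8 of 120 (6.67%).

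Genes of other cell types that a sort could hold had shares on both sides of those of all genes (6.79% and 11.2%). Endothelial genes had 10 of 92 pairs (10.9%; 8.70% to 13.0% by list) with Sox9, above all genes, and 11 of 92 (12.0%; 4.35% to 17.4%) with H3K4me3, near all genes. Podocyte and parietal cell genes had 4 of 68 (5.88%) with Sox9 and 13 of 68 (19.1%; 5.88% to 23.5% by list) with H3K4me3, Wt1 having H3K4me3 in 3 lists. Stromal genes had 4 of 76 (5.26%) and 5 of 76 (6.58%), immune genes 3 of 96 (3.13%) and 4 of 96 (4.17%), and genes of other nephron and duct segments 6 of 96 (6.25%) and 9 of 96 (9.38%). A peak list does not measure expression, and the part of other cells in the results was not tested.

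No difference in the composition of the marked promoters passed the test. The mean ratio of observed to expected CG dinucleotides was 0.726 ± 0.00962 at starts with a Sox9 peak and 0.728 ± 0.00502 at starts with an H3K4me3 peak, against 0.542 over all 21238 starts (exact permutation p = 0.83). At starts with a peak of 2 or more steps the ratio was 0.701, 0.782, 0.792 and 0.820 for Sox9 and 0.826, 0.796, 0.813 and 0.847 for H3K4me3, lower for Sox9 in 4 of 4 pellets (difference -0.0468, exact permutation p = 0.114). Sox9 replicate 1, the lowest, had 13 such starts. In the CG-richest of 3 equal groups of starts, 9.99% had a Sox9 peak and 16.6% an H3K4me3 peak; in the poorest, 2.20% and 3.65%. Rich over poor was 4.49, 4.34, 5.46 and 4.01 in the Sox9 lists and 4.60, 4.33, 4.88 and 4.39 in the H3K4me3 lists. The SOX core motif AACAAT, searched on both strands of the 300 bp promoter windows, was present in 7.63%, 4.69%, 4.04% and 4.73% of promoters with a Sox9 peak and 4.51%, 4.38%, 4.95% and 5.04% of those with H3K4me3. The means were 5.27% ± 1.60 and 4.72% ± 0.328, both below the 9.05% of all starts (exact permutation p = 0.8). G and C made up 63.2% of the bases of promoters with a Sox9 peak and 63.0% with H3K4me3, against 56.2% over all starts. The motif is AT-rich, and the part of base composition in its lower share was not tested. Sox9 replicate 1 was the highest of the 8 lists, and without pellet 1 the difference of 0.551 points turned to -0.305. None of the 5 printed promoters held the motif.

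At 10 days after injury the difference between the antibodies at gene starts was -0.822 points, against 0.805 at 48 h, and the change with time did not pass (exact permutation of the time over pellets, p = 0.371). None of the 7 measures of placement, width and height passed such a test (lowest p = 0.286 by exact permutation, adjusted p = 0.914).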

How the data were processed

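CUT&RUN peak lists of 4 Sox9 and 4 H3K4me3 libraries at 48 h were used, each called against its pellet's input according to the peak names. The inputs were not analysed here as samples. The submitters' processing notes name MACS3, Bowtie, Bowtie2 and Partek 10, and the mm10 build. Read filters, duplicates, scaling and the peak threshold are not given in the sources used here, and depth is unknown, so precision rests on 4 replicates labelled as biological. The deposited score of the authors, a display value, did not enter any result. The fold enrichment is the authors' ratio over local background, deposited per peak. Significance (p and q) was deposited by the authors as −log10 values. Fold and p were used within a list to solve the peak height in steps.

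Members and gene lists were chosen with earlier results of these data known. Gene positions, strands and promoters came from RefSeq tables of GRCm38.p6, the assembly of mm10 (21238 starts of 17492 of 21887 protein-coding genes; 4395 genes by either end). The antibody label was permuted exactly over the 8 lists (70 arrangements, two-sided), and pellets over 24 pairings. Draws of 7706 peaks were repeated 100 times. Named genes were 10 set by name for injured tubules and Sox9, the 8 at each end of the mean number of Sox9 minus H3K4me3 lists in the draws, the 8 with most lists of both, genes in 4 of 4 of an antibody and 0 of 4 of the other, and up to 4 members of each gene list with most lists. Named regions were up to 5 of each kind by lists and then height. Same-numbered lists came from 1 pellet, per the labels' protocols. Their deviations in peaks at genes correlated between -0.0073 and 0.0105, and the own partner was the best match for 1 of 4, so the pairing rests on the labels. At most 13 peaks were identical between any 2 lists, which is no sign of a duplicated list. Alternatives tried were a −log10 q of at least 5, other windows, whole lists or draws, peaks of 2 or more steps, other presence rules, the replicate block and leaving out each pellet. Scripts were tested on simulated data. Calculations ran in Python 3.11.15 with SciPy 1.17.1, pandas 2.3.3, NumPy 2.4.6 and, for plots, Matplotlib 3.10.9.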

Additional observations from a re-analysis of the deposited data

Results flagged for a closer look

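Of the lists compared, 2 values stood far from the other 3 of their group. The share of Sox9 summits inside genes was 51.0% in replicate 3, and the share of H3K4me3 peaks of 2 or more steps at gene starts was 17.5% in replicate 3. Chance gives such a gap in about 1 of 20 groups, and several groups were screened, so such flags can arise by chance. Both values came from pellet 3, whose Sox9 list also had the highest share at gene starts.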

How the results depend on the processing

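Read depth is unknown, lists differ in length, and few peaks rise above the lowest height, so precision is limited to the spread of 4 lists. None of the 38 alternatives with a test over all 8 lists passed (lowest exact permutation p = 0.0571, for genes per list in whole lists). The others with a test, leaving out a pellet and the replicate block, could not reach 0.05 at their size (smallest possible exact permutation p = 0.1, 0.167 for pairings and 0.125 for the block). Of 120 values under alternatives, 82 kept their direction, of which 26 moved by more than 1.5 times in size, 18 turned direction and 20 counts of genes moved by more than 1.5 times.

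With the replicate block, which takes differences within pellets, the start share difference stayed at 0.805 points (exact sign-flip p = 0.25). A −log10 q of at least 5, draws, a 3000 bp window, all genes of the table and either gene end left the start share difference between 0.804 and 1.11 points.

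The own-pellet minus other-pellet share turned to 0.0452 points with a 5000 bp window and to 1.44 points among peaks of 2 or more steps. The median distance turned to -47.2 bp at a −log10 q of at least 5 and to -27723 bp among peaks of 2 or more steps. Nearness within against between antibodies turned to -0.0973 points in whole lists and to -0.806 among peaks of 2 or more steps. Genes per list turned to -970.25 in whole lists, and the motif difference to -1.37 points among peaks of 2 or more steps. The cause was not tested in these cases, and neither was the part of the longer H3K4me3 lists that whole lists keep.

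Genes with Sox9 in 4 of 4 and no H3K4me3 list, 0.35 in draws, numbered 3 in whole lists, 1.22 with a 3000 bp window, 7.74 with at least 3 of 4 and 22.87 with the gene body and 10000 bp. The reverse count of 0.06 became 10, 0.45, 4.71 and 19.22. In whole lists, at least 3 of 4 gave 25 and 163 genes, and the gene body gave 9 and 190. Without each pellet in turn (3 of 3 against 0 of 3, an easier rule) the counts were 1.75 to 3.02 and 1.28 to 1.56.

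Leaving out each pellet in turn gave differences from -0.311 (without pellet 3) to 0.934 points for summits inside genes, -0.642 to 0.0374 (without pellet 3) for summits far from genes, and -0.0066 (without pellet 3; also below 0 without pellet 2) to 0.0430 for peaks of 500 bp or more. They ran from -0.0276 to 0.0037 (without pellet 2) for the own-pellet share, -292 (without pellet 4; also below 0 without pellet 2) to 350 bp for the median distance, and -0.0478 (without pellet 3) to 0.0987 for nearness. They ran from -0.0035 to 0.0016 (without pellet 1) for the CG ratio and -0.305 (without pellet 1) to 1.04 points for the motif. The start share difference stayed between 0.414 and 1.14 points, and that among peaks of 2 or more steps between -2.88 and -0.826.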
